A study of Mus musculus with 3 samples.

Results

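The zinc finger transcription factors of the Egr family, the Nab corepressors that bind them, and Srf, a factor that acts upstream of the early Egr genes, were followed in chromatin-associated RNA of mouse macrophages. The members were the 7 genes Egr1, Egr2, Egr3, Egr4, Nab1, Nab2 and Srf, found by symbol and gene identifier among 55536 annotated genes. They were selected on the spread of Egr1 between libraries, so the values of Egr1 that show this spread are given as a description, with no test read from them. The cells were primary macrophages grown from bone marrow of C57BL/6J mice. They had received Lipid A at 100 ng/ml for 10 min. Lipid A is the lipid anchor of bacterial endotoxin and is recognised by the receptor TLR4. Total RNA of the chromatin fraction, which holds much of the RNA still being made or processed, was sequenced after ribosomal RNA depletion. All 3 libraries were biological replicates of this 1 group, made from 1 µg (replicate 1), 250 ng (replicate 2) and 500 ng (replicate 3) of RNA. Amount and replicate cannot be told apart. One donor entry is given for all 3, and their spread may thus be partly technical. No unstimulated library was used here, so a level does not show induction.

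Egr proteins bind GC-rich DNA through zinc fingers and act as immediate early factors, whose genes are switched on from existing proteins. Nab1 and Nab2 dock onto Egr1, Egr2 and Egr3 and bring in the NuRD chromatin remodelling complex, and Nab2 is itself a known target of Egr1 in a feedback loop. Srf binds CArG boxes, AT-rich sites in the control regions of Egr1, Fos and many cytoskeletal genes. It works there with ternary complex factors (TCFs) such as Elk1, which the kinase ERK phosphorylates, or with the actin-regulated cofactors of the MRTF family. In the myeloid lineage Egr1 and Egr2, with Nab proteins, are known for favouring macrophage over neutrophil fate.

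The libraries held between 14386725 and 16005795 estimated counts on annotated genes. Levels of a gene are compared between libraries as CPM after edgeR's TMM scaling (scaled CPM, counts corrected for library size), and between genes as the authors' TPM, which also corrects for length. TPM shifted whole libraries: short RNA types held 53.9%, 63.9% and 66.5% of TPM in replicates 1, 2 and 3. The median log2 ratio of replicate 3 to the mean of the other libraries was -0.35 in TPM against -0.01 in scaled CPM. The corresponding median for replicate 1 was 0.28 in TPM against -0.01, and unscaled CPM shifted replicate 3 by -0.12. All 10 macrophage markers were detected, and their summed level was 4481, 3434 and 3383 scaled CPM. None of the markers of fibroblasts, neutrophils, T cells, B cells or mast cells was detected. Fibroblast markers summed to 0, 64 and 69 counts in replicates 1, 2 and 3. The part of other cell types in the results was not tested.

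Of the 7 genes, 6 were detected, which means at least 1 TPM in each library, a level reached by 24.4% of all annotated genes. Egr4 (ENSMUSG00000071341.4, chr6:85511121-85513589, minus strand), known mainly from neurons and germ cells, was listed at 0 counts in every library and in both of the authors' quantifications. The limit that a count of 0 allows was 0.193, 0.176 and 0.220 scaled CPM in replicates 1, 2 and 3. Intervals and limits here cover counting error only. The weakest values that passed were those of Egr3 and Egr1 in replicate 3, at 1.04 and 1.23 TPM.

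**Figure D1:**
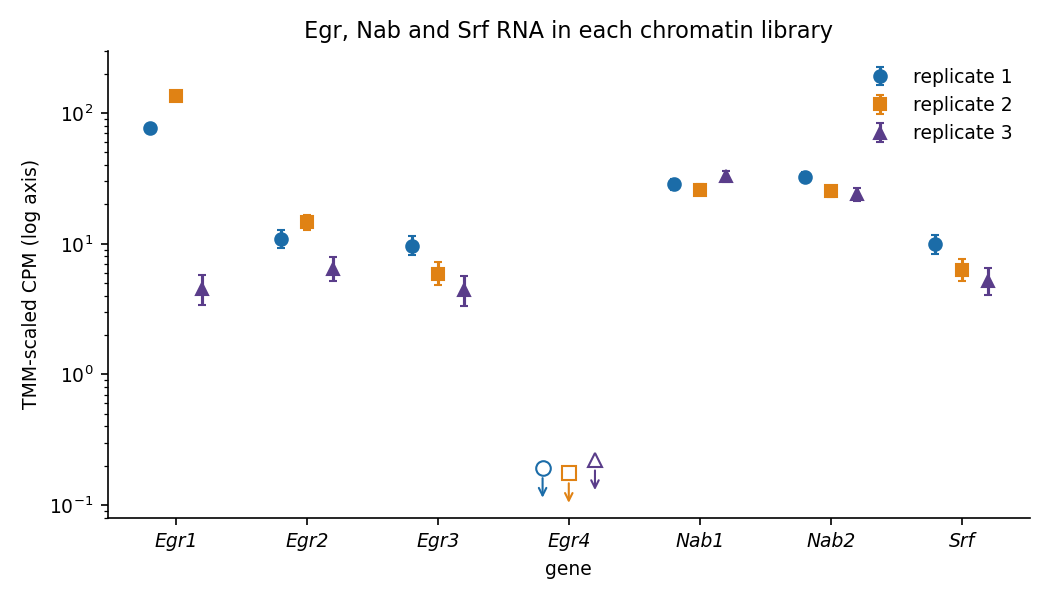
Level of each gene in each chromatin library, as TMM-scaled CPM on a log axis, with points for single libraries and bars for the 95% exact Poisson interval of the count. Open symbols with arrows mark the limit that a count of 0 allows for Egr4. Egr1 runs from 4.48 to 136 scaled CPM, while Nab1 and Nab2 stay between 23.8 and 32.8.

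Egr1 (ENSMUSG00000038418.7, chr18:34859823-34864984, plus strand, mm10), the best known immediate early factor of the family, had 1195, 2314 and 61 counts in replicates 1, 2 and 3. These counts were 76.7, 136 and 4.48 scaled CPM, with a 95% exact Poisson interval of 3.43 to 5.76 in replicate 3. Replicate 3 stood far below the other libraries, and the highest library was 30.3-fold above the lowest. The log2 ratio of replicate 3 to the mean of the other libraries was -4.42, the second lowest of 15877 genes with a mean count of 10 or more. The lowest was mt-Co3, a mitochondrial gene whose counts were 678, 1.86 and 1.53 and thus high in replicate 1 alone. Egr1 exceeded 72.6%, 86.9% and 2.85% of the detected protein-coding genes in TPM in replicates 1, 2 and 3. It went from an abundant transcript to one near the bottom of the detected range.

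Of the neighbours of Egr1 on the chromosome, Etf1 showed no such spread. Etf1, a translation termination factor gene 37800 bases away on the other strand, had 36.0, 34.1 and 38.0 scaled CPM. Reep2, the nearest gene on the other side, had at most 15 counts in a library.

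Egr1 has 2 annotated transcripts with nested exons. Egr1-202 starts 1384 bases into the long first exon of Egr1-201, both splice out the same intron of 678 bases, and all 3036 bases of Egr1-202 are also in Egr1-201. A further gap of 36 bases divides its first exons. Most counts were assigned to the shorter model. Egr1-202 received 79.2%, 83.8% and 92.1% of the Egr1 counts in replicates 1, 2 and 3, or 946, 1938 and 56.2 counts. Egr1-201, the only one that holds the 5′ end of the gene, received 249, 376 and 4.80 counts, with a standard deviation from read assignment of 20.05, 26.11 and 2.97. The second quantification gave Egr1-202 74.6%, 75.1% and 86.7%. Both models were thus lowest in replicate 3.

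Egr2 (Krox20, ENSMUSG00000037868.15, chr10:67535475-67542188, plus strand), known for its roles in myelination, hindbrain patterning and macrophages, had 170, 249 and 88 counts. Its levels were 10.9 (95% exact Poisson interval 9.34 to 12.7), 14.6 (12.8 to 16.5) and 6.46 (5.18 to 7.96) scaled CPM in replicates 1, 2 and 3. It thus had the order of Egr1, highest in replicate 2 and lowest in replicate 3, over a 2.26-fold range. Its log2 ratio for replicate 3 was -0.93, just within 2-fold, so it was not counted among the genes over 2-fold lower. Ado, a thiol dioxygenase gene that lies 2322 bases beyond it on the other strand, had 14.4, 19.2 and 14.8 scaled CPM and a log2 ratio of -0.17.

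Egr2 and Srf were the members with CArG boxes in the promoter table, so their upstream sequences are shown here. They are from RefSeq, build GRCm38.p6, 5′ to 3′ on the gene's strand, with searched motifs in capitals. The Egr2 stretch is chr10:67537619-67537868, directly upstream of the start of Egr2-201, and its capitals are a CArG box whose first base is 72 bases before the start. The Srf stretch is chr17:46556176-46556412 on the minus strand. Its capitals are, in order, an Egr-type motif GCGGGGGCG and CArG boxes 82 and 62 bases before the RefSeq start.
Egr2: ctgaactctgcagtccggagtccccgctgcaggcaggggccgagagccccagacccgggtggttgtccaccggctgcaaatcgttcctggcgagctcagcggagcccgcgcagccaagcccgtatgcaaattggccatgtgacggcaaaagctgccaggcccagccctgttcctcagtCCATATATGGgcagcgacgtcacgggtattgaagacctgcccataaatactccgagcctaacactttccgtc
Srf: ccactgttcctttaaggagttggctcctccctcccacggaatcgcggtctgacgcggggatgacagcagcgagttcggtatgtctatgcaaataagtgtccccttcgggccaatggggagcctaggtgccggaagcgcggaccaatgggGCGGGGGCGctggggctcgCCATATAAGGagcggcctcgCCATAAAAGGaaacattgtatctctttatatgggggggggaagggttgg

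Another RefSeq start of Egr2 also has a CArG box 72 bases upstream, at chr10:67537494-67537503, here with its flanks and the box in capitals. Nab1 had no CArG box but held the Egr motif GCGTGGGCG in 2 places, chr1:52500581-52500589 and chr1:52500549-52500557. They lie 141 and 109 bases before the RefSeq start and inside the annotated first exon of Nab1-201. They are shown on the gene's strand with the motif in capitals, the first as its reverse complement.
Egr2 second start: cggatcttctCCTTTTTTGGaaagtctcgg
Nab1 first motif: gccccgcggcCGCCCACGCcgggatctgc
Nab1 second motif: actcggccgcGCGTGGGCGggagccggag

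The 4 motifs were searched on both strands of windows of 300 bases, with no bases shared between the matches in these genes. A window takes in 250 bases before a RefSeq start and the first bases after it. A CArG box was in 1.63% of 32851 windows, GCGTGGGCG in 0.612%, GCGGGGGCG in 2.91% and the cyclic AMP response element TGACGTCA in 1.79%. The Nab1 window also held GCGGGGGCG, 38 bases before the start. The windows of Egr4 and Nab2 held none of the 4. Windows were matched for 5 of the 7 genes, all except Egr1 and Egr3. A match describes these letters only.

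Egr3 (ENSMUSG00000033730.4, chr14:70077203-70082614, plus strand), a family member best known from muscle spindles and lymphocytes, had 151, 101 and 60 counts. This was 9.70 (95% exact Poisson interval 8.21 to 11.4), 5.92 (4.82 to 7.20) and 4.41 (3.36 to 5.67) scaled CPM. Unlike Egr1 and Egr2 it was highest in replicate 1, with a log2 ratio of 0.85 for replicate 1 and -0.76 for replicate 3. The intervals of replicates 2 and 3 overlapped. Bin3, the next gene along on the same strand, had 20.4, 20.2 and 22.5 scaled CPM.

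Egr1 made up most of the family's TPM in replicates 1 and 2 but not in replicate 3. Its share was 78.6%, 86.0% and 28.4%, that of Egr2 was 12.7%, 10.9% and 47.6%, and that of Egr3 was 8.65%, 3.15% and 24.0%. Egr2 was the highest family member in replicate 3, with 2.06 TPM against 1.23 for Egr1. In the second quantification Egr2 also led there, with 48.4% of the family, and Egr3 followed with 31.9%. These shares rest in part on few counts in short models. Egr2-204, of 427 bases, held 44.2% of Egr2 TPM there with 8.09 counts. Egr3-203, of 489 bases, held 38.2% of Egr3 TPM with 5.67 counts. By counts the genes lay closer, at 117 for Egr2, 92.0 for Egr3 and 89 for Egr1.

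Nab1 (ENSMUSG00000002881.14, chr1:52457294-52500679, minus strand) had 443, 442 and 447 counts. Its levels of 28.4 (95% exact Poisson interval 25.9 to 31.2), 25.9 (23.6 to 28.5) and 32.8 (29.9 to 36.0) scaled CPM spanned a 1.27-fold range, the narrowest of the 6 detected genes. It was highest in replicate 3, with a log2 ratio of 0.27. On the TPM scale the ratio was -0.24, against the median of -0.35 for all genes on that scale.

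Nab2 (ENSMUSG00000025402.12, chr10:127660918-127668568, minus strand) had 506, 431 and 325 counts, with a standard deviation from read assignment of 9.72, 7.38 and 6.26. Its levels were 32.5 (29.7 to 35.5), 25.3 (22.9 to 27.8) and 23.8 (21.3 to 26.6) scaled CPM, and the intervals of replicates 2 and 3 overlapped. Nab2 was thus lowest where Egr1 was lowest, but over a 1.36-fold range against 30.3-fold.

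The Nab2 locus is crowded. It overlaps 3 genes on the other strand: Stat6, the transcription factor of interleukin 4 signalling, by 40 bases, the antisense RNA Gm16229 by 1646 bases, and Nemp1, a nuclear envelope protein gene, by 1668 bases. Gm16229 had 7.40, 4.40 and 3.41 scaled CPM, Nemp1 10.5, 15.5 and 10.4, and Stat6 221, 171 and 213. Strand settings of the authors' counting were not given in the sources used here. Reads of Nab2 and these genes therefore cannot be told apart where they overlap.

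Srf (ENSMUSG00000015605.6, chr17:46548329-46556175, minus strand) had 154, 108 and 71 counts. Its levels were 9.89 (8.39 to 11.6), 6.33 (5.20 to 7.65) and 5.22 (4.07 to 6.58) scaled CPM, highest in replicate 1, with overlapping intervals in replicates 2 and 3. It had the library order of Egr3. The long non-coding gene Gm26904 spans the whole of Srf on the other strand and had 3.90, 2.67 and 2.56 scaled CPM. Cul9, a cullin gene 1940 bases downstream of Srf, had 133, 97.9 and 125 scaled CPM.

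In order of mean TPM, Egr1 came first with 24.2 ± 21.4 (SD, n = 3), but not without replicate 2 (14.4 against 16.9 for Nab1) or in the second quantification (19.8 against 20.2). Nab1 followed with 16.1 ± 3.04 and Nab2 with 12.1 ± 3.52. Srf had 4.38 ± 2.36, Egr2 4.02 ± 1.78 and Egr3 1.89 ± 1.03 (SD, n = 3 each). Of the 6 pairs of neighbours in this order, 4 had a difference of one sign in all 3 libraries. The differences of log2(TPM + 1) were 0.40 ± 0.15 for Nab1 over Nab2, 1.34 ± 0.23 for Nab2 over Srf and 0.78 ± 0.48 for Egr2 over Egr3 (SD, n = 3). Each gave a two-sided p = 0.25 in an exact permutation test that flips signs, the smallest that 3 libraries allow, and 0.375 after Benjamini-Hochberg adjustment over the 6 pairs, the pair with Egr1 included. The pair of Egr3 and Egr4 had the same p, with no fold because Egr4 was at 0. Nab1-202, a short model annotated as retained intron, held 28.4%, 37.8% and 20.5% of Nab1 TPM in replicates 1, 2 and 3. Its share of Nab1 counts was 5.49%, 6.07% and 3.24%. Nab1-202 had 5.56, 5.42 and 2.92 TPM, while all Nab1 models had 19.57, 14.35 and 14.25 and Nab2 had 16.07, 10.85 and 9.37. In replicates 1 and 2 the TPM of Nab1-202 was larger than the lead of Nab1 over Nab2. The lead there thus rests on this short model, and only in replicate 3 does it exceed it. Srf and Egr2 differed by 0.08 ± 0.58, with Srf higher in 2 of 3 libraries, and so did not differ beyond their spread (exact permutation p = 1). In the second quantification Srf was higher by 0.95 ± 0.36 (exact permutation p = 0.25, n = 3), while Egr2 and Egr3 differed by 0.29 ± 0.58 (p = 0.5) and Nab2 exceeded Srf by 0.49 ± 0.08. There 73.1% ± 2.73 of Srf TPM (SD, n = 3) lay in 2 short models annotated as retained intron. The coding model Srf-201 had 3.33, 2.36 and 1.78 TPM, against 3.97, 5.91 and 3.00 for all models of Egr2. The place of Srf in that quantification thus depends on these short models. Egr1 and Nab1 differed by 0.48, 1.54 and -2.77 in replicates 1, 2 and 3, which is the selected spread.

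Of the 6 detected genes, 1 (Egr1) was over 2-fold lower in replicate 3 than the mean level of the remaining libraries, beside 1.17% of all genes tested. Because the choice of genes used this contrast, nothing is read from that count. Of the 6, 5 were lowest in replicate 3, beside 29.1% of all genes. Nab1 was the exception in scaled CPM, and in TPM it was lowest there too, as were 73.1% of all genes. The 5 include Egr1, so this count holds part of the selected spread. For Egr3, Nab2 and Srf the intervals of replicates 2 and 3 overlapped. Egr3 and Srf were over 1.5-fold higher in replicate 1 than the mean level of the remaining libraries, beside 4.72% of all genes.

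The spread was also expressed as edgeR's biological coefficient of variation, the variation between libraries beyond counting error as a fraction of the level. It was 0.67 for Egr1, 0.26 for Egr3, 0.25 for Egr2, 0.23 for Srf, 0.16 for Nab2 and 0.15 for Nab1, against a median of 0.18 over all genes. One of the 6, Egr1, was above the 90th percentile, beside 10.0% of all genes by definition. Without replicate 3 the value of Egr1 was 0.20, at percentile 41.8. This edgeR estimate draws each gene towards genes of similar level, so with 2 libraries it is a weak measure of a single gene. Estimated with DESeq2 over all 3 libraries, the value was 1.25 for Egr1, 0.24 for Egr2, 0.26 for Egr3 and 0.24 for Srf. The size of the value for Egr1 thus depended on the estimator. Egr1 had 76.7 and 136 scaled CPM in replicates 1 and 2.

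Genes known to act just upstream of Egr transcription were within 2-fold in replicate 3, as were most genes. Only 1.17% of all genes tested were over 2-fold lower there, so a short list is likely to hold none. Of 6 SRF cofactor genes, 5 had enough counts, none was over 2-fold lower in replicate 3, and their median log2 ratio was -0.08. The MRTF gene Mrtfa had 75.6 ± 18.6 TPM, the TCF gene Elk4 30.9 ± 3.60, Mrtfb 16.0 ± 3.88 and Elk1 12.1 ± 2.04 (SD, n = 3), while Myocd, the cofactor of heart and smooth muscle, was listed at 0. All 13 ERK cascade genes were within 2-fold too, with a median of -0.05. The kinase Map3k8, which links TLR4 to ERK in macrophages, had 71.5 ± 18.4 TPM, and Araf and Map2k2 had 65.0 ± 11.5 and 53.4 ± 12.3 (SD, n = 3). These are RNA levels and do not report kinase activity.

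Early targets of Srf with TCFs, by contrast, included many genes that were low in replicate 3. Of 12, 11 had enough counts and 7 were over 2-fold lower there, beside 1.17% of all genes, with a median log2 ratio of -1.62. This list was chosen with earlier results of these data known. Fos, a subunit of AP-1, had 277, 268 and 75.8 scaled CPM in replicates 1, 2 and 3. Junb, another AP-1 subunit, had 263, 145 and 94.6. The nuclear receptor gene Nr4a1 had 45.3, 30.9 and 10.6. Each of these was lowest in replicate 3, by a log2 ratio of -1.84, -1.10 and -1.80. The other 4 were Fosb (-1.84), the antiproliferative gene Btg2 (-1.62), the phosphatase gene Dusp5 (-1.74) and Ier2 (-2.14). Zfp36, whose product destabilises cytokine mRNA, was just inside 2-fold at -0.99. Mcl1, a survival factor of the Bcl2 family, was at 0.02. Egr1, at -4.42, lay below every gene of this list, and Egr2 and Egr3 lay above most of it.

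Cytoskeletal targets of Srf with MRTFs were mostly within 2-fold. Of 13 with enough counts, 2 were over 2-fold lower in replicate 3, beside 1.17% of all genes. These were the actin genes Actb (-1.07) and Actg1 (-1.18), and the median of the list was 0.02. Actb had 330, 338 and 158 scaled CPM, and the tropomyosin Tpm3 and the filamin Flna had ratios of 0.14 and 0.05.

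In the promoter table a CArG box was found for 2 of 10 early targets (Dusp5 and Zfp36) and 4 of 13 cytoskeletal targets (Actg1, Cnn2, Myl9 and Vcl), beside 1.81% of all genes. None of the 5 SRF cofactor genes or the 9 corepressor genes with a window had one. Both Egr2 and Srf, shown above, had one. Sites outside these windows were not searched, so a gene without a match may still have a CArG box further away.

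**Figure D2:**
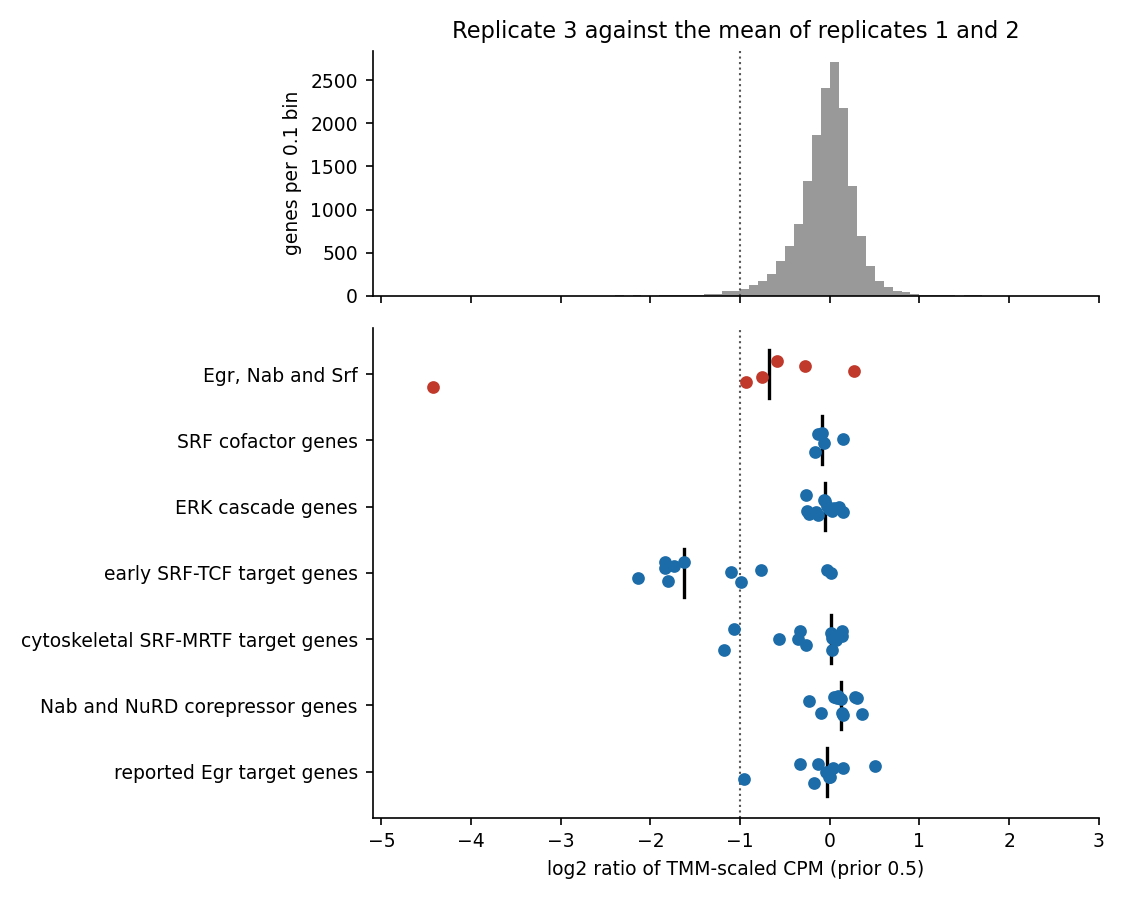
Log2 ratio of TMM-scaled CPM in replicate 3 to the mean of replicates 1 and 2: above, the number of genes per bin for all 15877 genes tested (values under -5 in the first bin), and below, single genes of each list as points with the list's median as a bar. The dotted line is the 2-fold limit. Egr1 lies alone at -4.42, and the early SRF-TCF targets have their median at -1.62.

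Partners and reported targets of the Egr proteins were within 2-fold in replicate 3 as well, like most genes. With 1.17% of all genes tested over 2-fold lower there, lists of this size are likely to hold none. All 11 genes of the Nab and NuRD corepressor list were within 2-fold, with a median log2 ratio of 0.13 for replicate 3. The remodelling ATPase genes Chd4 and Chd3 had 90.9 ± 13.1 and 79.5 ± 16.6 TPM, the subunit Mta2 42.1 ± 11.3 and the deacetylase Hdac1 28.8 ± 8.39 (SD, n = 3). Of 10 reported Egr targets with enough counts, none was over 2-fold lower, with a median of -0.03. Tgfb1, the growth factor gene, had a ratio of -0.17, the adhesion receptor Cd44 -0.13 and the adhesion molecule gene Icam1 0.0039. The cytokine gene Tnf, named after its values were seen, came nearest with -0.95, at 35.0, 14.0 and 12.4 scaled CPM. It was high in replicate 1 only, unlike Egr1, which was highest in replicate 2. The macrophage fate genes Csf1r, Irf8, Spi1 and Cebpa had ratios of -0.20, -0.08, -0.27 and -0.38. Gfi1, which opposes Egr factors in neutrophil fate, had at most 1 count in a library.

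The genes whose pattern over the 3 libraries was most like that of Egr1 were found by Euclidean distance between deviations of log2(scaled CPM + 0.5) from each gene's mean, over 15876 genes. The nearest were Gm10925, Hist2h2aa1, Slc15a2, Dusp6 and Ier2, at distances of 1.57, 1.83, 1.85, 1.86 and 2.00. Gm10925 is an unprocessed pseudogene and Hist2h2aa1 a histone gene with a near-identical copy, so their counts are uncertain. Slc15a2, a peptide transporter gene, had 7.19, 4.69 and 0.66 scaled CPM. Dusp6, which encodes a phosphatase of ERK, had 11.8, 14.4 and 2.57. Dusp6 shared the order of Egr1, and Slc15a2 and Ier2 were highest in replicate 1. Among the members, Egr2 stood at place 110, Egr3 at 737, Srf at 1350, Nab2 at 3560 and Nab1 at 14034. The distance weighs the size of the changes as well as their order. Egr2, with the order of Egr1, lay at a distance of 2.83, and Nab1 at 3.84. Hist2h2aa1 and Slc15a2 had only 4.70 and 9 counts in replicate 3. With 3 libraries these places are a description.

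**Figure D3:**
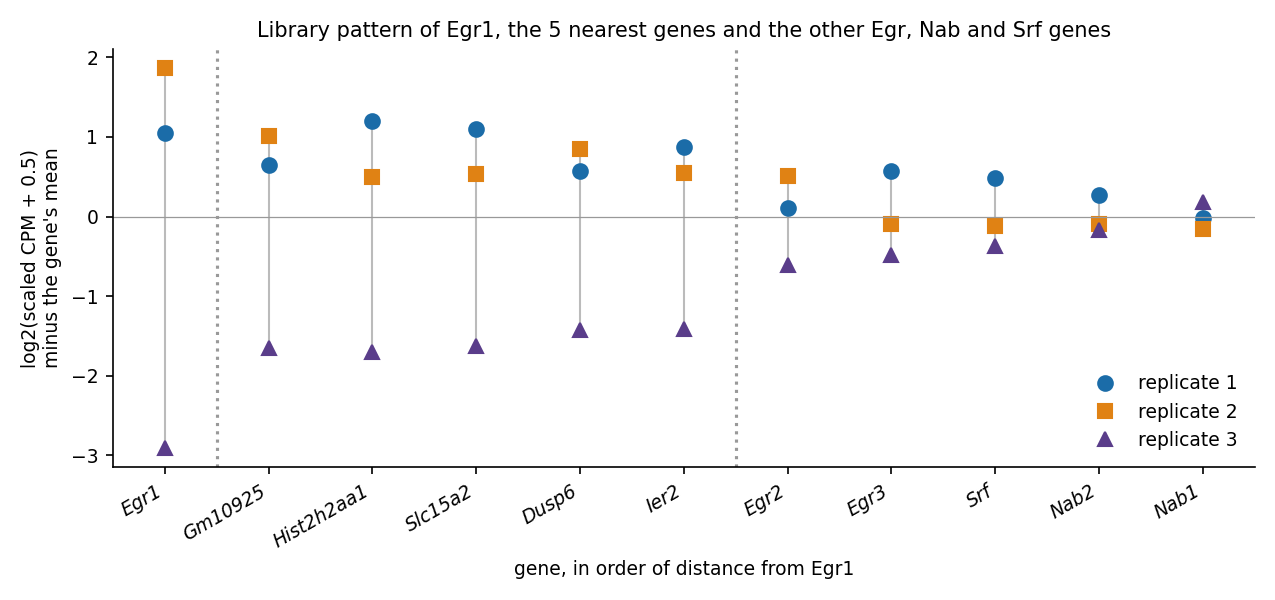
Deviation of log2(scaled CPM + 0.5) from the gene's mean in each library, for Egr1, the 5 genes nearest to it and the other detected Egr, Nab and Srf genes in order of distance. Replicate 3 is the lowest point of every gene except Nab1, where it is the highest.

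The authors' quantifications divided some genes differently among their transcript models. Egr2-201 held 75.2%, 93.0% and 93.4% of Egr2 counts in replicates 1, 2 and 3. Egr2-203, which starts 814 bases downstream and shares the last exon, held 24.8%, 6.41% and 5.81%. Egr2-203 was thus larger in replicate 1, but the second quantification gave it 26.5%, 24.4% and 36.6%, without that difference.

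Egr3 counts went mostly to Egr3-202, a model annotated as retained intron. It held 81.8%, 98.5% and 62.9% of Egr3 counts, and 78.1%, 82.6% and 67.2% in the second quantification. Only 157 of its 3876 bases, or 4.05%, lie in an intron of the coding models, and 94.3% of its bases are shared with the coding model Egr3-204. Its bases are thus mostly exonic in another model, and its share cannot be read as unspliced RNA.

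Nab1 and Srf also have retained-intron models. They held 5.49%, 6.07% and 3.24% of Nab1 counts and 11.5%, 6.54% and 9.65% of Srf counts. For Srf the second quantification gave 28.5%, 34.1% and 34.5%, so this share depended on the quantification. As these models are short, their TPM share was larger, at 28.9% ± 8.65 for Nab1 and 38.4% ± 6.84 for Srf (SD, n = 3 each). In the second quantification it was 43.1% ± 8.36 for Nab1 and 73.1% ± 2.73 for Srf. Intron bases make up only 15.2% of Nab1-202, 10.0% of Srf-203 and 35.8% of Srf-204. The shares of these models cannot be read as unspliced RNA either. Nab2 counts were divided between Nab2-201 and Nab2-202, with 44.2%, 58.0% and 66.8% in Nab2-201. The second quantification put 84.7%, 93.6% and 92.0% there. All 2311 bases of Nab2-202 are also in Nab2-201.

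**Figure D4:**
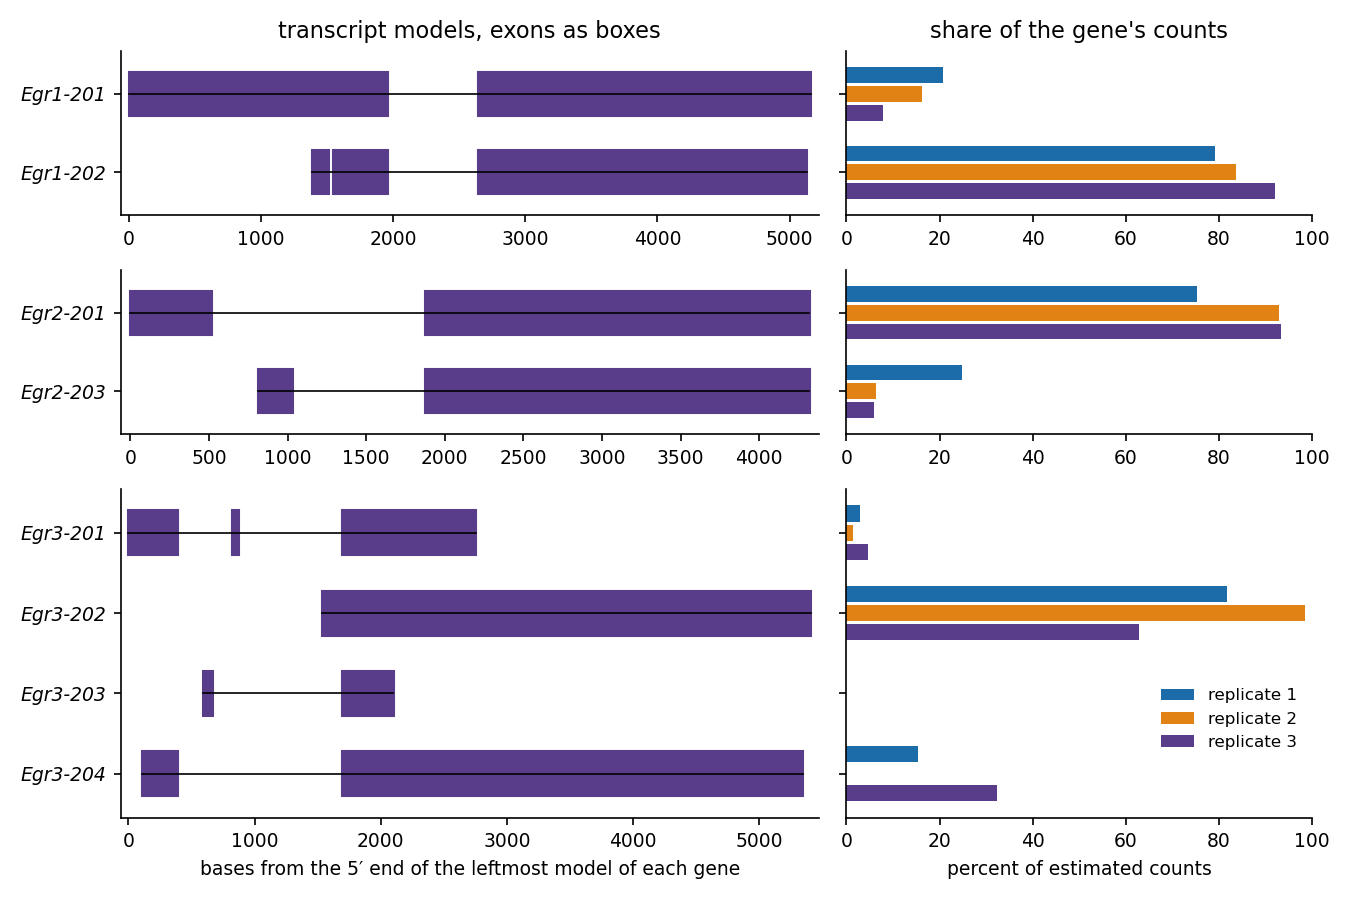
Left, exons (boxes) of the main transcript models of Egr1, Egr2 and Egr3 by distance in bases from the 5′ end of the leftmost model of each gene. Right, the percent of the gene's estimated counts in the gene table's quantification that went to each model, with a bar for each replicate. Egr1-202, Egr2-201 and Egr3-202 hold most counts of their gene in every library.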

How the data were processed

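Per the deposited readme files, the authors derived a gene table and a transcript table from transcriptome alignments to mm10 with GENCODE M21, and a second transcript table directly from the reads. Per the file headers, these hold estimated counts, TPM and, in the first set, a posterior standard deviation of the count. Programs and strand settings were not given in the sources used here. Rows that named no annotated gene held 1.16%, 0.459% and 0.351% of estimated counts in replicates 1, 2 and 3 and were left out. Counts were rounded to whole numbers for edgeR 4.0.16 and DESeq2 1.42.0 (R 4.3.3), with a mean count of 10 or more as the limit for ratios and spread. Ratios used TMM-scaled CPM with a prior of 0.5, pair tests log2(TPM + 1). The scaling, ratio and spread steps were checked on simulated counts, with the same variation set for every gene. With 1 group, no test between conditions was possible.

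The members, gene lists and cell type markers were chosen with earlier results of these data known. Beside the members, the genes named are those of each list with up to 4 of the highest mean TPM, the lowest, any over 2-fold lower in replicate 3, the 5 nearest to Egr1, and overlapping or neighbouring genes. Some genes that this rule names are not reported here.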

Additional observations from a re-analysis of the deposited data

How the results depend on the processing

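The number of Egr, Nab and Srf genes over 2-fold lower in replicate 3 was 1, and 2 with unscaled CPM, with TPM, with the second transcript table, without replicate 1 and without replicate 2. The other gene was Egr2, at a log2 ratio of -1.05, -1.10, -1.02 and -1.13, and without replicate 2 Egr3, at -1.05. The share of all genes past this limit was 1.17%, and 1.62%, 3.77%, 0.718%, 1.76% and 1.62% in these settings, in order. The number over 1.5-fold higher in replicate 1 was 2, and 2 to 4 with a replicate left out, the highest without replicate 2. The share of all genes was 4.72%, and 6.59% without replicate 2 and 6.37% without replicate 3. The number above the 90th percentile of variation was 1, and 0 without replicate 3 to 2 without replicate 2, when Egr3 joined Egr1. The number detected was 6, beside 24.4% of all annotated genes, and 2 at a limit of 5 TPM, where no share of all genes was taken. In the second table the mean TPM was 3.44 for Egr3, 20.2 for Nab1 and 9.13 for Srf, against 1.89, 16.1 and 4.38. The difference between Egr1 and Nab1, -0.25 in the mean, was 0.37 in scaled CPM and between -1.15 and 1.01 with a replicate left out. That between Srf and Egr2, 0.08, was -0.49 in scaled CPM, 0.95 in the second table and between -0.16 and 0.41 with a replicate left out, -0.0021 without replicate 3. Nab1 minus Nab2 was 0.10 ± 0.32 in scaled CPM (exact permutation p = 0.75, n = 3), which does not correct for length, and so did not exceed its spread there. The causes of these changes were not tested. Tnf passed the 2-fold limit with unscaled CPM, TPM, the second table and without replicate 2, and the early SRF-TCF targets numbered 6 to 9 over the alternatives. No paired analysis was possible because there was a single group. Depth limits Egr1 and Egr3 in replicate 3 most, at 61 and 60 counts.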
